A study of Homo sapiens with 2 samples.

Results

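This is an account of 10 genes of the insulin-like growth factor (IGF) system in HBEC-3KT, an immortalized line of human bronchial epithelial cells, with and without added cystathionine beta-synthase (CBS). They are the binding proteins IGFBP2, IGFBP3, IGFBP4, IGFBP5, IGFBP6 and IGFBP7, the receptors IGF1R, IGF2R and INSR, and the receptor substrate IRS1. They were taken by gene symbol from the 60619 genes of the deposited tables, where each of the 10 symbols has 1 row. RNA sequencing covered 2 libraries. In 1 library the cells had been transduced with pLenti6 carrying human CBS, which makes cystathionine from homocysteine and serine, and in the other with pLenti6 alone. Cells of both groups were exposed to lentivirus, selected with blasticidin and grown as flat cultures on gelatin, so the controls carry the vector and its selection too. The line is immortalized, and nothing in the labels says how many cultures or clones each library came from.

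IGF1 and IGF2 are secreted ligands that act through IGF1R, a receptor tyrosine kinase, and through its close relative INSR, the insulin receptor. The activated receptors phosphorylate IRS1, a docking protein that recruits PI3-kinase and so feeds the AKT and mTOR pathway. IGF2R has no kinase: it takes IGF2 up for degradation and, as the mannose 6-phosphate receptor, carries newly made enzymes to lysosomes. IGF binding proteins hold the ligands outside the cell, prolong their life and control how much reaches the receptors, and in epithelia they are made by the same cells that carry the receptors.

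With 1 library in each group, the spread between cultures is unknown, so nothing below was tested against it and every difference is between single libraries. Total estimated counts were 20785957 with CBS and 20433062 with the empty vector. Levels are in CPM, counts scaled to library size after TMM normalisation (a correction for library composition), or in the authors' TPM, which also corrects for transcript length and is the only scale used to set genes beside each other. Log2 folds set the CBS library over the empty-vector control, with 5 added as a prior count, and the range in brackets is an exact 95% interval that covers counting error only. A gene was called lower or higher if it differed by 2-fold or more and its interval did not include a ratio of 1. CBS itself had 3669 counts in its own library and 280 in the control, a log2 fold of 3.59, which matches the labels. CBSL, a separate CBS-like entry, had 4378 and 343 counts, a log2 fold of 3.56. How reads were divided between these entries was not examined, so the counts of CBS alone may understate its level. All 8 basal airway markers were above the filter on low counts, with TP63 at 5136 and 4946 counts, whereas DCN, LUM, COL1A2 and COL3A1 of the fibroblast list were at 0 in both libraries and COL1A1, a collagen chain of the same list, had 132 and 270 counts. In bulk RNA, fewer cells that make a transcript and less transcript per cell cannot be told apart.

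The promoters of 4 members are shown first because the results turn on these genes: IGFBP3, IGFBP6 and INSR, which were called lower with CBS, and IGF2R, the member with an interval above a ratio of 1. Each is the RefSeq stretch from 250 bases before to 50 bases after the gene's start on GRCh38.p14, read along the gene's own strand: chr7:45921223-45921522 (minus strand) for IGFBP3, chr12:53097417-53097716 (plus) for IGFBP6, chr19:7294365-7294664 (minus) for INSR and chr6:159968832-159969131 (plus) for IGF2R. Capitals mark every match, on either strand, to 6 motifs. The GC box was searched as GGGCGG, and neighbouring matches to it may share letters. The E-box was searched as CACGTG, and each match to it also holds the shorter core of the hypoxia response element, ACGTG, on both strands. The AP-1 motif was searched as TGANTCA and the FOXO motif as GTAAACA. The start-site box bound by TBP was searched as TATAAA.
IGFBP3: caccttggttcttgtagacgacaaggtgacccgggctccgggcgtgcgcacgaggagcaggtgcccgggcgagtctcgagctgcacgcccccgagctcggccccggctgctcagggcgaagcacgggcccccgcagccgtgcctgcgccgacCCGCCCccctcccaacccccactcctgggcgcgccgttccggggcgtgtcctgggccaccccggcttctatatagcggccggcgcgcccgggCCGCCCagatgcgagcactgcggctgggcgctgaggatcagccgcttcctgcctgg
IGFBP6: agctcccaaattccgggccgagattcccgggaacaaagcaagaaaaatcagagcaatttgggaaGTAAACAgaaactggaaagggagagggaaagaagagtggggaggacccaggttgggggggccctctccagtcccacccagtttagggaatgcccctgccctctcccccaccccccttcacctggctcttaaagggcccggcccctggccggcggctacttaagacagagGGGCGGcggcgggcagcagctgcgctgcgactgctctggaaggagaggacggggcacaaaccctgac
INSR: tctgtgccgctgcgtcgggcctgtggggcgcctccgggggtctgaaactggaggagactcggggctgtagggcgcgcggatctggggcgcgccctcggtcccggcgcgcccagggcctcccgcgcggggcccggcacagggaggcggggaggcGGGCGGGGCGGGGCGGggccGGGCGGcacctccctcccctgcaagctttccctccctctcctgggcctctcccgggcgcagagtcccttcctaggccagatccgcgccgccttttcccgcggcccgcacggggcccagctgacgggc
IGF2R: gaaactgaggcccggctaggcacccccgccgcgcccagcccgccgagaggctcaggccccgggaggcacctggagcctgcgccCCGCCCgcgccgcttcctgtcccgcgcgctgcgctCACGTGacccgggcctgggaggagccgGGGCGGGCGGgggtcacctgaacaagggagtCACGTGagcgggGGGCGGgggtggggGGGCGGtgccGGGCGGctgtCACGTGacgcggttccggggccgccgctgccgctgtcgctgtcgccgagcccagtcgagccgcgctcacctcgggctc
The IGF2R promoter held CACGTG 3 times, starting 132, 74 and 28 bases before the start. CACGTG was in 7.43% of 27305 promoters of this length, and 28 promoters, 0.103%, held it at least 3 times. IGF2R also had 6 matches to GGGCGG, a number reached by 2.91% of promoters, and INSR had 4, a number reached by 9.13%. IGFBP3 had 2 matches and IGFBP6 had 1, and at least 1 match was found in 44.6% of all promoters. IGFBP6 had a single GTAAACA, a motif found in 3.41% of promoters. Among all promoters, 21.6% held ACGTG, 11.95% held TATAAA and 7.76% held TGANTCA, and the letters of the last pair were in none of the 4 windows. The promoters of IGFBP3, INSR and IGF2R were rich in G and C, at 74.7%, 78.3% and 78.7%, with 36, 36 and 41 CpG sites. The IGFBP6 promoter had 61.7% G and C and 12 CpG sites, close to the median of all promoters of 58.3% and 14. The 3 lower members thus differed from each other in the G and C content of their promoters. Among members whose promoters are not shown, IGF1R had 79.7% G and C with 55 CpG sites. IRS1 had 79.3% with 47, and IGFBP4 had 74% with 30, while IGFBP2 and IGFBP5 were at 55.3% and 59%. IRS1 also had 4 matches to GGGCGG and 1 to CACGTG. High G and C content was thus not particular to the promoters shown. RefSeq entries matched 9 of the 10 members, all but IGFBP7. The RefSeq starts lay 602 bases from the start of the deposited gene for IGFBP3, 231 for IGFBP6, 380 for INSR and 17 for IGF2R, and the data do not show which start these cells used.

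IGFBP3, the main carrier of IGFs in blood (ENSG00000146674, chromosome 7, 45912245 to 45921874), was counted 767 times in the CBS library and 3391 times in the control. These are 36.0 and 170.2 CPM, so the level was 4.73-fold lower with CBS (interval 4.37 to 5.12), a log2 fold of -2.23 (-2.36 to -2.13). Only 70 of the 13304 genes above the filter had a lower log2 fold, so IGFBP3 ranked 71 from the bottom. IGFBP6, which binds IGF2 in preference to IGF1 (ENSG00000167779, chromosome 12, 53097436 to 53102345), was counted 1159 times with CBS and 3240 times in the control. Its 54.4 and 162.7 CPM gave a log2 fold of -1.58 (-1.68 to -1.48), a 2.99-fold lower level (2.80 to 3.20). It ranked 237 from the bottom.

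The remaining binding proteins were closer between libraries. IGFBP2, a secreted carrier that is also found at cell surfaces (ENSG00000115457, chromosome 2, 216632828 to 216664436), was counted 2538 times with CBS and 2968 times in the control (log2 fold -0.32, interval -0.40 to -0.25). IGFBP7, which binds IGFs only weakly (ENSG00000163453, chromosome 4, 57030773 to 57110385), was counted 3067 times with CBS and 3313 times in the control (log2 fold -0.21, interval -0.28 to -0.14). IGFBP4, which mainly restrains IGF action (ENSG00000141753, chromosome 17, 40443461 to 40457731), was counted 128 times with CBS and 180 times in the control (log2 fold -0.57, interval -0.93 to -0.26). All 3 were lower with CBS by less than the 2-fold limit. IGFBP5, a binding protein that attaches to matrix (ENSG00000115461, chromosome 2, 216672105 to 216695525), had 1 count in each library. It lies 7668 bases from IGFBP2, tail to tail, so a gene with 2538 and 2968 counts lies beside one with 1 count in each library.

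**Figure D1:**
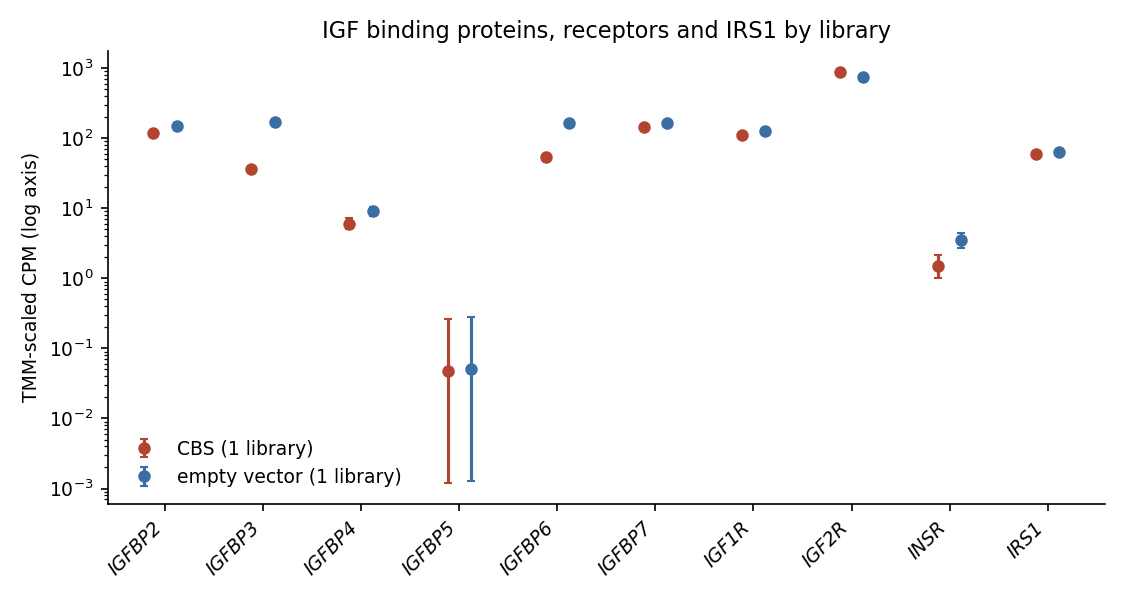
TMM-scaled CPM of the 10 members on a log axis, with CBS in red and empty vector in blue, 1 library each; bars are exact 95% Poisson intervals. IGFBP3 (36.0 against 170.2 CPM) and IGFBP6 (54.4 against 162.7 CPM) show the widest gaps among the well-counted members, and IGFBP5 rests on 1 count in each library.

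Among the receptors, IGF2R was the most abundant transcript (ENSG00000197081, chromosome 6, 159969099 to 160113507). It was counted 18868 times with CBS and 14621 times in the control, or at 885 and 734 CPM. The log2 fold was 0.27 (0.24 to 0.30), a 1.21-fold higher level, and IGF2R was the member whose interval lay above a ratio of 1. IGF1R (ENSG00000140443, chromosome 15, 98648971 to 98964530) was counted 2332 times with CBS and 2541 times in the control (log2 fold -0.22, interval -0.30 to -0.14). INSR (ENSG00000171105, chromosome 19, 7112255 to 7294034) was scarce, with 32 counts against 70, and its log2 fold of -1.11 (-1.88 to -0.60) was past the 2-fold limit. That call did not hold in the authors' TPM, where INSR was at 0.460 and 0.670, or with a prior count of 20, where the log2 fold was -0.86. The counts per unit of TPM, which grow with the transcript length assigned to a gene, were 69.6 with CBS and 104.5 with the empty vector for INSR. The ratio of these was 0.675 of the median over all genes, and 0.955% of genes had a smaller ratio. For the other 8 members above the filter that relative ratio lay between 0.966 and 1.04. The counting of INSR thus differed in assigned transcript length as well as in number, and the transcripts behind this were not analysed here. IRS1 (ENSG00000169047, chromosome 2, 226731317 to 226799759) was counted 1282 times with CBS and 1252 times in the control, and the interval of its log2 fold of -0.06 included 0 (-0.18 to 0.05).

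**Figure D2:**
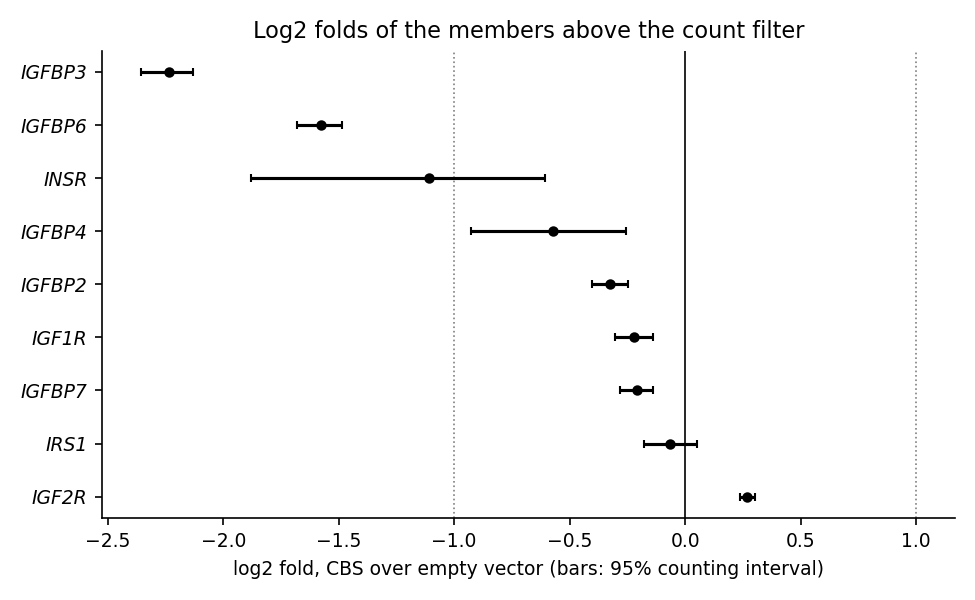
Log2 fold of CBS over empty vector for the 9 members above the filter, with exact 95% counting intervals as bars and the 2-fold limits as dotted lines. IGFBP3 at -2.23, IGFBP6 at -1.58 and INSR at -1.11 lie past the lower limit, and IGF2R at 0.27 lies above 0.

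Of the 10 members, 9 were above the filter (10 or more counts in 1 library and 1 CPM or more on average), and IGFBP5 was not. Of these 9, 3 were called lower, where 5.28% of all 13304 genes were, and 0 were called higher, where 1.41% of all genes were. INSR dropped out and 2 members were called lower in the authors' TPM, with a prior count of 20 and with a filter of 100 counts, where 2.83%, 3.83% and 3.97% of all genes were. The interval lay below a ratio of 1 for 7 members and above it for 1, and over all genes these shares were 31.1% and 31.6%. The median log2 fold of the 9 was -0.32, and that of all genes was 0.00. These counts compare 2 libraries, and the genes were chosen with earlier results known, so they describe the members and are not a test.

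**Figure D3:**
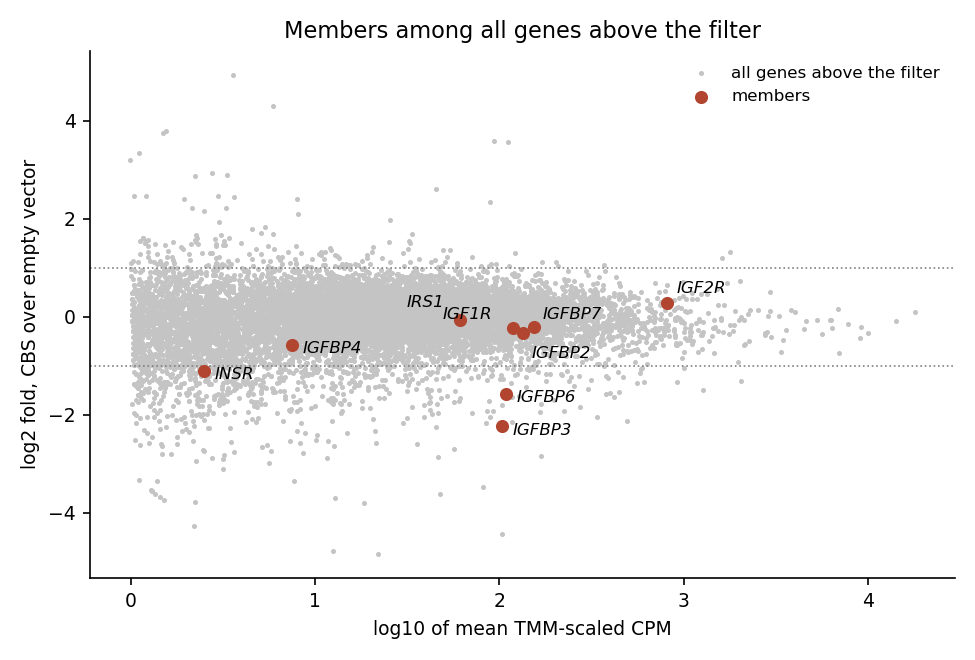
Log2 fold against log10 of the mean CPM for all 13304 genes above the filter in grey and the 9 members in red. IGFBP3, IGFBP6 and INSR lie below the lower dotted 2-fold limit, and the other members lie between the limits.

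On the TPM scale, which allows genes to be ranked, IGFBP6 led the members in the empty-vector library at 306 TPM. It was followed by IGF2R at 236, IGFBP2 at 185, IGFBP7 at 163 and IGFBP3 at 103 TPM. IGF1R at 19.1 and IRS1 at 18.5 TPM were far lower, and IGFBP4 was at 5.67 TPM. With CBS the order changed: IGF2R led at 298 TPM, IGFBP2 at 156 and IGFBP7 at 154 TPM came next, and IGFBP6 followed at 112 TPM. IGFBP3 was at 23.4 TPM, close to IRS1 at 19.6 and IGF1R at 18.4 TPM. Without replicates the spread of these levels is unknown, so the order of IGFBP2 and IGFBP7 with CBS, and of IGF1R and IRS1 in either library, is not established.

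The makeup of the binding proteins differed with it. The summed TPM of IGFBP2 to IGFBP7 was 763 in the control and 450 with CBS, a ratio of 0.589. IGFBP3 and IGFBP6 accounted for 87.3% of that gap. Their share of the sum was 53.6% with the empty vector and 30.1% with CBS, and in counts, which allow a Wilson 95% interval, it was 50.6% (49.8% to 51.5%) and 25.1% (24.2% to 26.1%). The pair was picked because both genes were called lower, so its part in the gap and its smaller share follow largely from that choice. The Wilson intervals cover counting error only. IGFBP6 alone went from 40.1% to 24.9% of the sum and IGFBP3 from 13.5% to 5.20%. IGFBP2 made up 24.3% and 34.8%, and IGFBP7 21.4% and 34.3%, although the level of each was slightly lower with CBS. The ratio of IGF2R to IGF1R was 12.3 with the empty vector and 16.2 with CBS, in TPM.

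**Figure D4:**
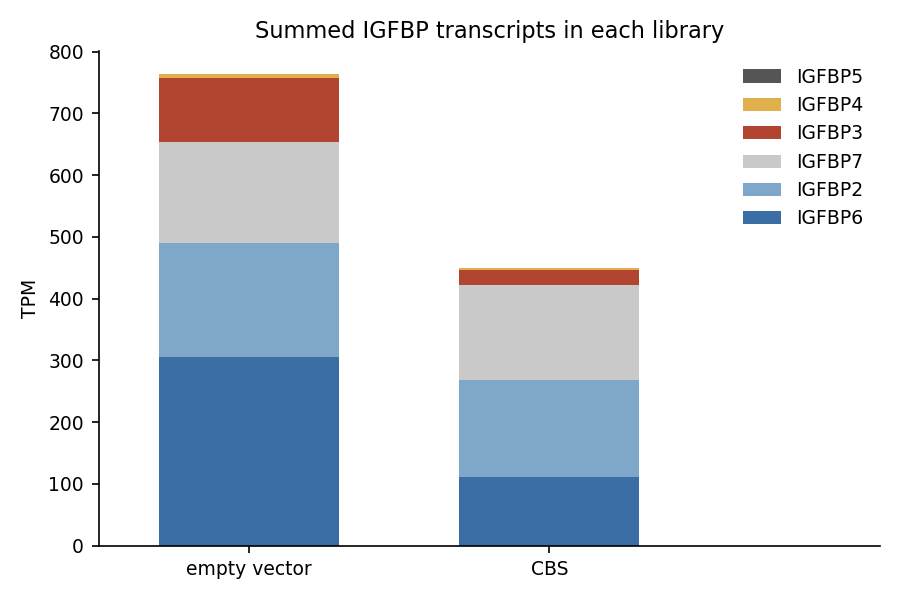
Stacked TPM of the 6 binding proteins in each library. The bar is 763 TPM high with the empty vector and 450 with CBS, and most of the difference lies in the IGFBP6 and IGFBP3 segments, while IGFBP2 and IGFBP7 keep similar heights.

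The surroundings of the lower genes in the genome were examined within 500 kb. IGFBP6 had 22 neighbours above the filter, whose log2 folds ran from -0.62 to 0.68 with a median of -0.14, and none of the 22 was called lower or higher. IGFBP3 had 2 such neighbours, both named as pseudogenes, at 0.11 and 0.85. INSR had 16, with a median of -0.40, and 1 of them was called lower. Over all genes 5.28% were called lower and 1.41% higher, so 1 lower gene of 16 is near the common share. IGFBP3 and IGFBP6 were examined because they were called lower, so that they lay below these neighbours follows largely from that choice. Of the genes that overlap a member in the deposited coordinates, POLR2B shares 396 bases with the end of IGFBP7 on the opposite strand and was at 0.30 (0.20 to 0.40). CHP1P2, a transcribed pseudogene inside IGF2R on the same strand, was at -0.42 (-0.64 to -0.22) with 335 against 421 counts. Strandedness of the counting is not given in the sources used here, so reads in the shared stretches cannot be assigned with certainty, and the other overlapping genes had at most 5 counts.

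Of the ligands, only IGF2 was above the filter. It was counted 51 times with CBS and 199 times in the control, at 2.39 and 9.99 CPM, with a log2 fold of -1.96 (-2.54 to -1.61). IGF1 had 1 count in each library. INS, IGFBP1 and IGFALS, the partner of IGFBP3 in blood, had 0, which allows up to 0.141 CPM in the CBS library and 0.151 in the control. IGF2 overlaps the INS-IGF2 readthrough, which had 0 counts in both libraries. IGF2 transcripts were thus scarce and lower with CBS, at 0.65 TPM against 2.86 in the control. IGFBP6, which binds IGF2 in preference to IGF1, was lower too. IGF2R, the clearing receptor of IGF2, was higher by 1.21-fold only and was not called. Of all genes above the filter, 75.3% had a lower log2 fold than IGF2R, so its difference was within the common range. Whether these differences are linked was not tested.

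Proteases that cut IGF binding proteins and the inhibitors of these proteases held 4 genes called lower and 1 called higher among 10 above the filter, where the shares over all genes were 5.28% and 1.41%, and their median log2 fold was -0.20. STC1, a stanniocalcin that blocks the protease PAPPA, was counted 818 times with CBS and 2924 times in the control (log2 fold -1.93, interval -2.05 to -1.82). STC2, its relative with the same action, was counted 4323 times with CBS and 12663 times in the control (log2 fold -1.65). CTSD, the lysosomal protease cathepsin D, was at -1.16 (-1.20 to -1.12) and KLK5, a kallikrein protease with 41 against 104 counts, at -1.34. PRSS23, a secreted serine protease, was at 1.03 (0.93 to 1.14), but it was no longer called once the dependence on GC content and length was taken out. PAPPA itself, singled out after its values were seen, was below the filter with 5 against 29 counts. STC1, STC2 and their target PAPPA thus all had fewer counts with CBS.

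Genes that act inside the cell, below the receptors, are taken next. Over all genes, 5.28% were called lower and 1.41% higher, so 1 call in a list of 18 to 20 genes is near the common share. Intervals lay below a ratio of 1 for 31.1% of all genes and above it for 31.6%. Among 18 receptor adaptors, the median log2 fold was -0.22, with 11 intervals below a ratio of 1 and 5 above, and 1 was called lower, SH2B2, an adaptor of the insulin receptor, at -1.02 (-1.58 to -0.61). IRS2, the relative of IRS1, singled out after its values were seen, was counted 658 times with CBS and 523 times in the control, at 0.23 on the log2 scale. Among 15 genes that restrain the receptors, with a median of -0.18, 2 were called lower, beside 5.28% of all genes. They were TRIB3, a pseudokinase that binds AKT, at -1.32 (-1.38 to -1.25), and SOCS3, a suppressor of cytokine signalling that also acts on IRS proteins, at -1.04 (-1.38 to -0.76). The 20 genes of PI3-kinase and AKT had a median of -0.01, with 8 intervals below a ratio of 1 and 7 above, and PIK3CD, a catalytic subunit, at -1.12 (-1.42 to -0.87) as the one call. The 19 genes of the mTOR complexes and their inputs had a median of 0.02. The one call was SESN2, a stress-induced sestrin that restrains mTOR complex 1, which was lower at -1.75 (-1.90 to -1.62). It had 552 counts with CBS against 1742. The medians of the PI3-kinase and mTOR lists thus lay close to that of all genes, although single members differed in both directions, and the activity of these kinases was not measured.

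FOXO factors, which AKT keeps out of the nucleus, and their targets held 3 genes called lower among the 14 with enough counts, beside 5.28% of all genes, and the median was -0.23. CCNG2, an atypical cyclin, was at -1.28 (-1.43 to -1.14) and TXNIP, a thioredoxin-binding arrestin, at -1.08, while PIK3IP1, a PI3-kinase inhibitor named to complete the count, was at -2.01 on 15 counts with CBS against 71. Genes that share the sorting work of IGF2R were measured in full, with 16 of 16 above the filter and a median of 0.04, and 0 were called in either direction. GNPTG, a subunit of the enzyme that makes the mannose 6-phosphate tag, was at -0.79 (-0.97 to -0.62), GNPTAB, which encodes its other subunits, at 0.33 (0.19 to 0.47), and GGA2, a sorting adaptor, at 0.42 (0.29 to 0.56). Receptor processing and partner genes had the lowest median of the lists with at least 2 genes, -0.52 over 11. Of the 11 intervals, 9 lay below a ratio of 1, where 31.1% of all genes did. LRP1, an endocytic receptor reported to bind IGFBP3, was called lower (734 counts with CBS, 2862 in the control, log2 fold -2.05, interval -2.18 to -1.94), as was ITGB3, an integrin chain with 9 against 45 counts, named to complete the count. IGF2BP2 and IGF2BP3, RNA-binding proteins that bind the IGF2 message, were at 0.01 and 0.24. Over these 10 lists, 15 of the 126 genes above the filter were called lower and 1 higher, which is 11.9% and 0.794%, beside 5.28% and 1.41% of all genes. The lists were written with earlier results of these data known, so these shares describe the lists and are not a test.

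**Figure D5:**
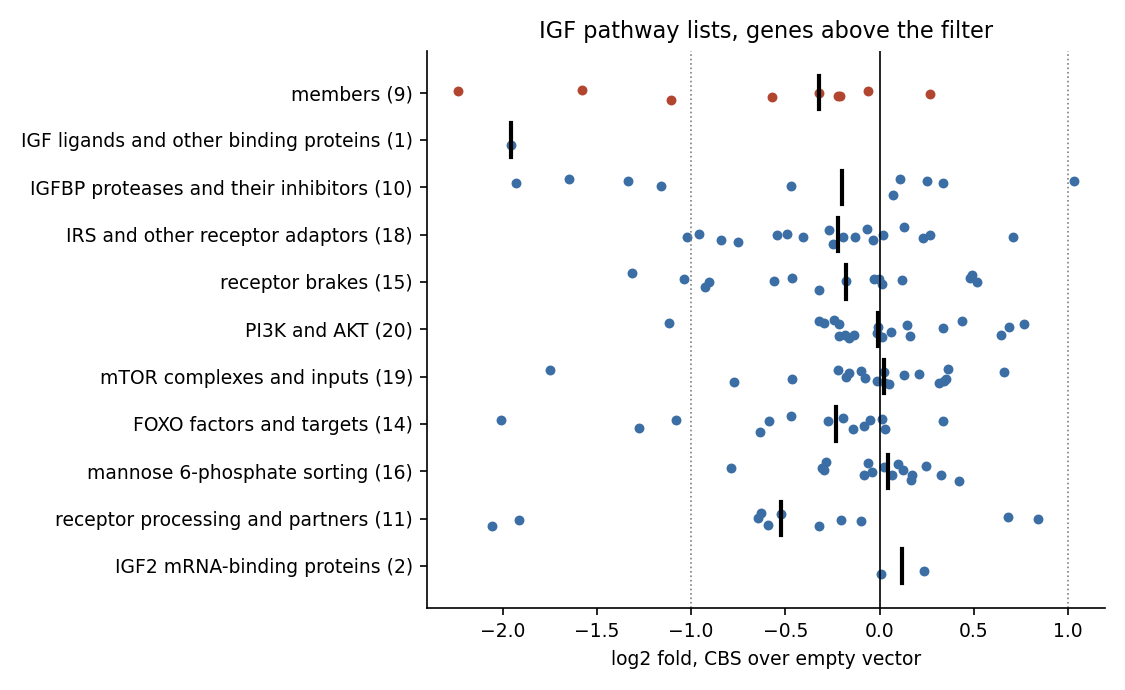
Log2 fold of each gene above the filter in the members (red) and in 10 lists of the IGF pathway (blue), with medians as black bars, 2-fold limits as dotted lines and the number of genes in brackets. Medians lie at -0.01 for PI3K and AKT and at 0.02 for mTOR, and at -0.32 for the members.

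Basal airway markers also differed between the libraries. Their summed level was 3580 TPM in the control and 2529 with CBS. The interval lay below a ratio of 1 for 5 of the 8 and above it for 2, where 31.1% and 31.6% of all genes did. KRT5, the most abundant of them, went from 2620 TPM in the control to 1844 with CBS and made up most of the gap in the sum. KRT14, a basal keratin, was at -2.15 (-2.26 to -2.06), KRT15 at -1.94 (-2.03 to -1.86), while NGFR, a neurotrophin receptor of basal cells, was at 0.93 (0.83 to 1.04), EPCAM, an epithelial adhesion molecule, at 0.54 (0.45 to 0.63) and TP63, the basal master regulator, at -0.04. KRT5, NGFR, EPCAM and TP63 were singled out after their values were seen. Fibroblast markers summed to 3.23 and 4.34 TPM, with 1 of 8 above the filter, COL1A1, which was called lower at -1.10 (-1.44 to -0.82). Immune markers summed to 9.85 and 9.81 TPM, with 1 of 6 above the filter, CD14, a monocyte receptor, at 0.05 (-0.23 to 0.33). Endothelial markers summed to 1.68 and 0.560 TPM, with TEK and KDR at 0. Most of the sum with CBS was CDH5, a cadherin of endothelium, singled out after its values were seen, which was called higher at 2.86 (2.43 to 4.89) on 87 counts with CBS against 7. Secretory and ciliated markers summed to 7.37 and 34.95 TPM, nearly all of it TUBA1A, with FOXJ1, DNAI1 and SCGB3A1 at 0. TUBA1A, an alpha-tubulin with 145 counts with CBS against 703, was called lower at -2.33 (-2.64 to -2.12). The gap in this sum thus rests on 1 gene and does not speak for secretory or ciliated cells. The part of these markers in the levels of IGFBP3 and IGFBP6 was not tested.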

How the data were processed

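RNA of HBEC-3KT cells was sequenced in 2 libraries, 1 with CBS and 1 with the empty vector, grouped by the genotype in the labels. Trimmomatic 0.39, STAR 2.6.1d, RSEM 1.3.2 and GRCh38 are named, without roles, in the submitters' processing notes. The authors deposited expected counts per gene, which were rounded to whole numbers here, and TPM values. Annotation and strandedness are not given in the sources used here. TMM factors (edgeR 4.0.16, R 4.3.3, no model fitted) were 1.03 and 0.975. DESeq2 1.42.0 size factors were an alternative. Intervals are exact conditional binomial (Clopper-Pearson). They were checked on simulated Poisson counts, which meet the assumption behind them. That check therefore does not show how well they hold for real libraries. Reads are not independent molecules, so intervals may be too narrow. The members and lists were chosen with earlier results of these data known. Named genes are the members, overlapping genes, and in each list those called with at least 100 counts in 1 library, or else up to 3 with the largest absolute fold. Others are named to complete a count or as chosen after their values were seen. With 2 libraries no genes of like pattern could be sought. GC content came from GENCODE 29 for 99.4% of genes. Promoters came from RefSeq (GRCh38.p14). The dependence on GC content and length was taken out by lowess (span 0.3, statsmodels 0.14.6). Python 3.11.15 was used with scipy 1.17.1, pandas 2.3.3 and numpy 2.4.6.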

Additional observations from a re-analysis of the deposited data

How the results depend on the processing

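IGFBP3 and IGFBP6 were called lower under every alternative run except a fold threshold of 4, where IGFBP3 was the 1 member called; their log2 folds ranged from -2.26 to -2.10 and from -1.58 to -1.31. INSR ranged from -1.20 to -0.19 and was not called in TPM or with a prior count of 20, and it fell outside a filter of 100 counts. The -0.19 is in log2(TPM + 1), where the added 1 exceeds both TPM values of INSR and shrinks its fold. Without it the TPM ratio of CBS over empty vector was 0.687. Calls in TPM used the fold alone, without an interval. IRS1, whose interval held no difference, ranged from -0.07 to 0.08. The median of the members was -0.19 in log2(TPM + 1), which is the value of INSR itself, and -0.20 once the dependence on GC content and length was taken out. The pathway lists held 27 lower and 8 higher genes at a fold threshold of 1.5, and 2 and 0 at a threshold of 4. With the dependence on GC content and length taken out, they held 12 lower and 0 higher genes. The lower genes were 10 in TPM and 13 with plain library totals in place of TMM. Over all genes the median log2 fold was 0.12 at a GC content of 26.5% to 40.8% and -0.23 at 57.8% to 75.2%. IGFBP3 and IGFBP6 made up 25.1% and 50.6% of IGFBP counts (the CPM scale) with CBS and empty vector, against 30.1% and 53.6% in TPM. Over all genes, 703 lower and 188 higher became 377 lower in TPM, 121 higher with a prior count of 20, 438 and 115 with a filter of 100 counts, 1281 and 431 without a filter, 1712 and 934 at a threshold of 1.5 and 105 and 23 at a threshold of 4. No paired analysis was possible because each group holds 1 library, and for the same reason no library could be left out. Depth limits genes with few counts, such as INSR, IGFBP4, IGF2, PAPPA, ITGB3 and PIK3IP1, and for IGFBP5 a difference was not detectable at this depth.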

Other observations

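Several genes of the PI3-kinase and mTOR lists had higher levels with CBS without reaching 2-fold. Those named here were singled out after their values were seen. The PI3-kinase and AKT list did not lean upward as a whole, whereas the mTOR list had more intervals above a ratio of 1 than below it. Of 20 PI3-kinase and AKT intervals 7 lay above a ratio of 1 and 8 below, and of 19 mTOR intervals 7 and 4. Over all genes 31.6% lay above and 31.1% below. MTOR, the kinase at the centre of both mTOR complexes, was counted 1959 times with CBS and 1157 times in the control, at 0.66 on the log2 scale. INPP4B and PHLPP1, phosphatases that oppose AKT signalling, were at 0.68 and 0.65. PIK3R3, a regulatory subunit of PI3-kinase, was counted 298 times with CBS and 162 times in the control, at 0.76 on the log2 scale. ULK1 of the mTOR list went the other way, at -0.77. CAV1, which forms the caveolae in which receptors gather, was at 0.68 with 18429 against 10728 counts, in the same list in which LRP1 was at -2.05.

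A noncoding transcript that overlaps the end of IGF2 on the same strand (ENSG00000240801, chromosome 11, 2129121 to 2129964) was counted 7 times with CBS and 30 times in the control. It lies in the deposited annotation as a gene of its own, so its reads and those of IGF2, with 51 against 199 counts, may be shared.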
